A study of Mus musculus with 6 samples.

Results

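A2.Snail embryonic stem cells (ESCs) were compared 24 hours after doxycycline (dox) had switched on their Snail transgene with cells of the same line and day that had received no dox. The comparison rests on 2 of the 6 arrays of the series, taken by their labels as the day 3 array with dox-induced Snail and the untreated day 3 array, and on 14755 of the 18193 genes read by a probe set with exactly 1 symbol. A2.Snail is a mouse line made from A2lox cells, in which the cDNA of interest is expressed from a dox-inducible promoter. The cells were maintained on irradiated fibroblast feeders with LIF, passaged without feeders, and differentiated as embryoid bodies, which are suspended cell aggregates, in serum with the Wnt inhibitor DKK1 (DKK). The DKK + dox group received dox at 250 ng/mL on day 2, the DKK group received DKK alone, and RNA was taken 6, 12 and 24 hours later, at days 2.25, 2.5 and 3. No array had dox without the transgene, so an effect of dox itself cannot be told apart from an effect of Snail.

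Snail is a zinc finger protein that binds a class of E-box sequences and represses transcription, and E-cadherin is its best known target. It is an inducer of epithelial-to-mesenchymal transition (EMT), in which polarized cells held in a sheet by junctions become single migratory cells surrounded by matrix. In the gastrulating embryo, epiblast cells undergo this transition at the primitive streak, and the mesoderm that forms there is the source of heart, blood and vessels.

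Each value is an array intensity on a linear scale with a lowest value of 1. A difference is the log2(intensity + 20.6) of DKK + dox minus that of DKK, which understates the change of dim genes. An intensity of 37.2 or less, the 40th percentile of all values, is called under the low-signal limit. Each group had 1 array at each time, so no difference has a replicate check and no test was made. A gene is counted as higher or lower at 2-fold or more, which is 1 on the log2 scale. Levels come from whole cultures, in which fewer cells of a type and less RNA per cell cannot be told apart.

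The probe set of Snai1 does not check the labels. It read 29.6, 18.8 and 14.5 in DKK + dox at 6, 12 and 24 hours, against 32.9, 16.6 and 10.9 in DKK, all under the limit, and whether it lies in the transgene was not analysed here. Cdh1, which encodes E-cadherin, read 3063 in DKK + dox and 6222 in DKK at 24 hours, a difference of -1.02. Hprt, a purine salvage enzyme often used as a reference gene, read 603, 1065 and 2293 in DKK + dox at 6, 12 and 24 hours, against 405, 330 and 331 in DKK. Its difference at 24 hours was 2.72. The other 10 members of a list of 11 housekeeping genes lay within 2-fold on the probe sets used. Actb had a difference of 0.03 (1.02 on a dimmer probe set). Tfrc had -0.40, and 1 of its 2 other probe sets above the limit was at least 2-fold lower. In A2lox cells the inducible cassette lies next to Hprt, and its part in the reading of that gene was not tested. The 45 ribosomal protein genes had a median difference of 0.02 and 0 of them reached 2-fold.

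At 24 hours, 461 genes (3.12% of those compared) were higher in DKK + dox by 2-fold or more and 324 (2.2%) were lower, and the median over all genes was 0.02. The largest differences were increases. At 4-fold the counts were 89 higher and 18 lower, and at 8-fold 20 higher and 1 lower. Of the 461 higher genes, 144 were at or under the low-signal limit in DKK, and of the 324 lower genes, 97 were at or under it in DKK + dox, so for these the size of the difference depends on a dim reading and on the offset of 20.6. A fold against the limit of 37.2 in place of the dim reading is a lower bound, and is given for several of the largest differences. Of 96 genes named or listed that were past 2-fold and had another probe set above the limit on a day 3 array, 27 had one that differed by less than 1.5-fold in that direction. Of 359 listed genes within 2-fold with such a probe set, 30 had one past 2-fold.

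**Figure D1:**
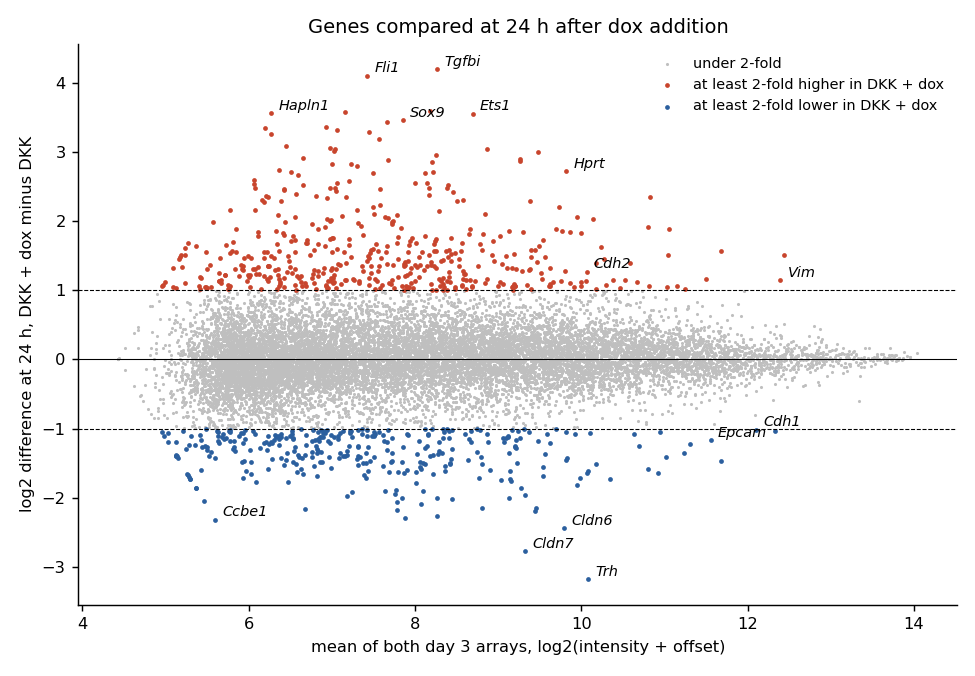
Log2 difference at 24 hours (DKK + dox minus DKK) of each of the 14755 genes against the mean of its day 3 values on the log2(intensity + 20.6) scale, with dashed lines at 2-fold. The 461 red points reach 4.19 (Tgfbi), whereas the 324 blue points reach -3.18 (Trh), and the brightest genes lie close to 0.

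The gene with the largest increase was Tgfbi, a secreted matrix protein that cells adhere to, at 1293 in DKK + dox and 51.3 in DKK (4.19). It was followed by Fli1, an ETS factor of blood and endothelial progenitors, at 693 in DKK + dox and 20.9 in DKK (4.10), the DKK value being under the limit. Next came the adhesion molecule Ncam1 at 990 in DKK + dox and 63.0 in DKK (3.60). The other genes among the 15 largest increases included transcription factors and secreted or surface proteins. The transcription factors were Ets1, Sox9, Gata2, Pknox2 and Mef2c, and the secreted or surface proteins were Dkk1, Hapln1, A2m, Angpt1 and Cdh11. Hapln1, a link protein of hyaluronan matrix, read 245 in DKK + dox and 1.89 in DKK, and Angpt1, a ligand of the endothelial receptor Tek, read 217 in DKK + dox and 4.33 in DKK. Myzap and Inka1 completed the 15, with differences of 3.32 and 3.28. In DKK, 9 of these 15 genes were at or under the limit. Against the limit the increase was at least 18.7-fold for Fli1, 6.58-fold for Hapln1, 5.84-fold for Angpt1 and 5.74-fold for Pknox2, the lowest of the 9.

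The largest decrease was that of Trh, the precursor of thyrotropin-releasing hormone, at 341 in DKK + dox and 3254 in DKK (-3.18). Of the other 14 genes among the 15 largest decreases, 8 belong to the epithelial lists described next, namely Cldn7, Cldn6, Ocln, Ap1m2, Tom1l1, Mal2, Marveld2 and Tmem30b. The adaptor Grb7, the secreted protein Wfdc2, the fatty acid transporter Slc27a2 and Ccnb1ip1 had differences between -2.09 and -2.19. Ccbe1 and Sncb were at the lowest value of 1 in DKK + dox and at 87.2 and 69.0 in DKK, so their differences of -2.32 and -2.05 rest on dim readings. Against the limit they were at least 2.35-fold and 1.85-fold lower.

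**Figure D2:**
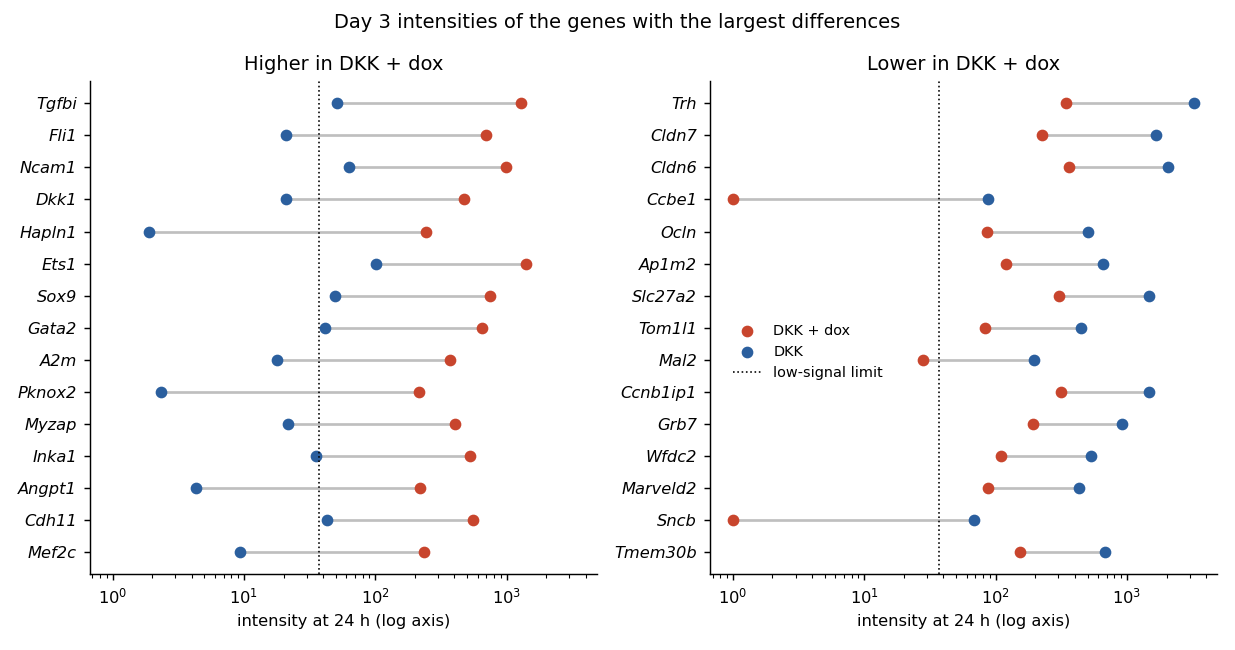
Intensities at 24 hours on a log axis for the 15 genes with the largest increase (left) and the 15 with the largest decrease (right), with DKK + dox in red, DKK in blue and the low-signal limit of 37.2 dotted. Of the 15 increases, 9 have a DKK value at or under the limit, whereas 12 of the 15 decreases keep a DKK + dox value above it.

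Among the proteins that seal epithelial sheets, the claudins and their partners stood out. Cldn7 read 89.1, 183 and 224 in DKK + dox at 6, 12 and 24 hours, against 258, 1099 and 1655 in DKK, a difference of -2.78 at 24 hours. Cldn6 read 360 in DKK + dox and 2049 in DKK (-2.44), and Ocln, which encodes occludin, 86.0 in DKK + dox and 501 in DKK (-2.29). Marveld2, or tricellulin, which closes the points where 3 cells meet, read 87.1 in DKK + dox and 431 in DKK (-2.07). All 4 were already lower at 6 hours, by -1.35, -1.01, -1.15 and -0.80. In all, 6 of 24 tight junction genes were at least 2-fold lower and 0 were higher, with a median of -0.29 against 0.02 over all genes. The scaffold gene Tjp1 read 2143 in DKK + dox and 1991 in DKK. The claudin gene Cldn3 and the tricellulin relative Marveld3 were within 2-fold on the probe sets used (-0.40 and 0.49) and lower on others. Cldn3 had -1.55, -1.71 and -2.19 on its other probe sets, and Marveld3 had -2.61 on one that read 71.6 in DKK + dox and 541 in DKK. The scaffold gene Cgn was lower by -1.35 on the probe set used and differed by 0.07 on another.

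Desmosomes and keratin filaments, which give epithelia mechanical strength, followed the same direction, with 5 of 21 genes lower, 0 higher and a median of -0.39. The desmosomal plaque gene Pkp2 read 306 in DKK + dox and 1162 in DKK (-1.86), and the keratin gene Krt18 read 302 in DKK + dox and 968 in DKK (-1.62). Krt8, whose product pairs with that of Krt18, read 704 in DKK + dox and 616 in DKK (0.19). Desmoglein Dsg2, the plakin Eppk1 and the junction protein Perp had differences of -1.20, -1.77 and -1.43. Other probe sets of Dsg2 above the limit were at -1.15, -0.47 and -0.38.

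Genes of apical polarity and membrane traffic had 8 of 26 lower and 0 higher, with a median of -0.37. Ap1m2, a subunit of the adaptor that sorts cargo to the basolateral membrane of epithelial cells, read 112, 253 and 120 in DKK + dox at 6, 12 and 24 hours, against 117, 444 and 653 in DKK. Its difference was -0.05 at 6 hours and -2.27 at 24 hours. The traffic adaptor Tom1l1 had -2.18 on the probe set used and -0.24 on another, and the transcytosis protein Mal2 had a DKK + dox value under the limit and 197 in DKK (-2.16). Ezr, the membrane to cytoskeleton linker ezrin, read 694 in DKK + dox and 2348 in DKK (-1.73), the polarity determinant Crb3 106 in DKK + dox and 372 in DKK (-1.64), and the recycling GTPase Rab25 73.0 in DKK + dox and 288 in DKK (-1.72).

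The list with the lowest median of all 52 was that of epithelial surface proteases and antigens, at -1.26, with 8 of 12 genes at least 2-fold lower and 0 higher. The lists were chosen with earlier results of these data known, so this rank is a description only. It holds a protease cascade of epithelial surfaces. The matriptase gene St14 read 57.4 in DKK + dox and 275 in DKK (-1.92), its substrate Prss8 32.2 in DKK + dox and 125 in DKK (-1.46), and their inhibitors Spint1 and Spint2 had -1.60 and -1.65. The receptor Erbb3 read 93.2 in DKK + dox and 400 in DKK (-1.89), and the adhesion antigen Epcam 1985 in DKK + dox and 4500 in DKK (-1.17). Genes of the proteases and of their inhibitors were both lower.

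Among 13 regulators of epithelial identity, 3 were lower and 0 higher, with a median of -0.28. Esrp1, a splicing factor that keeps the epithelial isoforms of many transcripts, read 304 in DKK + dox and 1246 in DKK (-1.97), and Esrp2 read 64.6 in DKK + dox and 66.2 in DKK (-0.03) on the probe set used. Another probe set of Esrp2 read 9.45 in DKK + dox and 86.7 in DKK (-1.84). The grainyhead factor genes Grhl2 and Grhl1 had -1.54 and -1.41.

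The cadherin genes differed in direction. Cdh1 and the placental cadherin gene Cdh3 were lower (-1.02 and -1.15). The neural and mesenchymal cadherin gene Cdh2 read 1640 in DKK + dox and 669 in DKK (1.27), Cdh11 555 in DKK + dox and 42.5 in DKK (3.19), and the vascular cadherin gene Cdh5 145 in DKK + dox and 29.8 in DKK (1.71). None of the 17 catenins, nectins and cadherins apart from these 5 reached 2-fold on the probe set used. The cadherin gene Cdh6 had 0.29 on the probe set used. Another of its probe sets had 1.13, at 47.2 in DKK + dox and 10.3, under the limit, in DKK. Cdh1 had reached its difference by 12 hours (-1.05), when that of Cdh2 was -0.08.

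**Figure D3:**
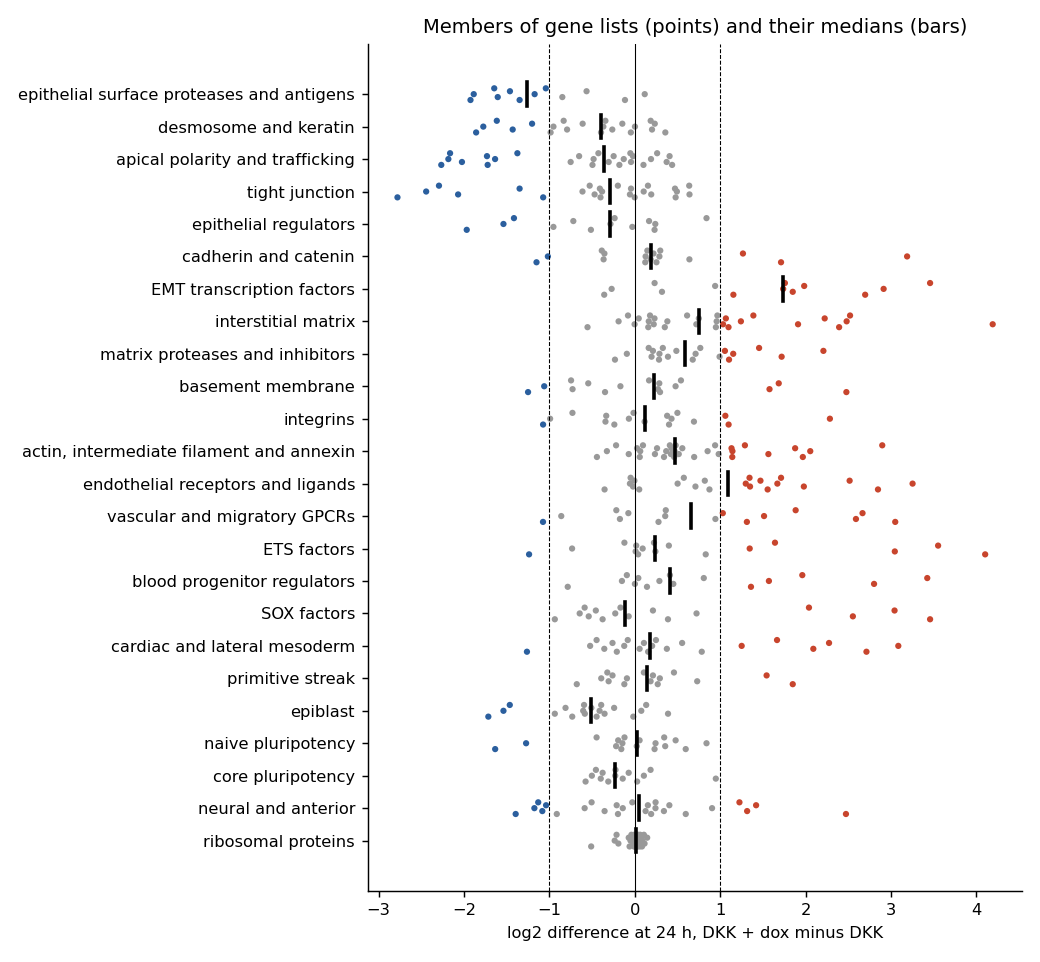
Log2 differences at 24 hours (DKK + dox minus DKK) of the members of 24 gene lists, each point a gene, red at 2-fold or more higher, blue at 2-fold or more lower, and black bars the medians. The EMT transcription factors (median 1.74) and endothelial genes (1.09) lie to the right, the epithelial surface proteases and antigens (-1.26) to the left, and the ribosomal proteins at 0.02.

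Snail binds E-boxes with the letters CAGGTG, or CACCTG on the other strand, and these were searched on both strands of RefSeq promoter windows (250 bases before to 50 after a start, assembly GRCm38.p6). The windows of the 6 epithelial genes with the largest decreases that hold the letters are shown to place the matches in sequence. Capitals mark CAGGTG or CACCTG, and each window is written on the strand of its gene.
Cldn7, chr11:69965171-69965470, plus strand: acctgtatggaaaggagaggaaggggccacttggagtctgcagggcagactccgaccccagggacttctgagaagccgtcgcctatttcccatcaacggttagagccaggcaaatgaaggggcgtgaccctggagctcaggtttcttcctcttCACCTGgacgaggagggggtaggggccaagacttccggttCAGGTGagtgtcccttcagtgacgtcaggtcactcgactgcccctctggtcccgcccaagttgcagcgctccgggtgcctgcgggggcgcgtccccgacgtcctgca
Cldn6, chr17:23679115-23679414, plus strand: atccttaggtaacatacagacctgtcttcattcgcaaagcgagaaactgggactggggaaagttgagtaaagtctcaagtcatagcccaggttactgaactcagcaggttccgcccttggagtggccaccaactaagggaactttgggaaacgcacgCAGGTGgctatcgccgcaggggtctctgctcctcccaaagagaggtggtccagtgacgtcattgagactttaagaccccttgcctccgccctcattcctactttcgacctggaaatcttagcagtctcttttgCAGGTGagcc
Ocln, chr13:100552449-100552748, minus strand: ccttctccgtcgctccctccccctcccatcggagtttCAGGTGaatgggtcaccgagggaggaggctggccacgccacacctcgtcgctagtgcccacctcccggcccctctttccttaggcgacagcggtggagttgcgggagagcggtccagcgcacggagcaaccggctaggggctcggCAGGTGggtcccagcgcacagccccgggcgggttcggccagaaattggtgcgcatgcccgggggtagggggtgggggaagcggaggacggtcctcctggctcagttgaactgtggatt
Ap1m2, chr9:21312284-21312583, minus strand: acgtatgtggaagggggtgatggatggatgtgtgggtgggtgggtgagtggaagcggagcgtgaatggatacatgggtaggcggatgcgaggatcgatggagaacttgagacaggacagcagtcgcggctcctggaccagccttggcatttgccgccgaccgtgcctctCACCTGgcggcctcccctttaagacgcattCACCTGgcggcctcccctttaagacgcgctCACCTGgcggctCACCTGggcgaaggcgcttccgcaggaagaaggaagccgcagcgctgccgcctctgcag
Tom1l1, chr11:90687552-90687851, minus strand: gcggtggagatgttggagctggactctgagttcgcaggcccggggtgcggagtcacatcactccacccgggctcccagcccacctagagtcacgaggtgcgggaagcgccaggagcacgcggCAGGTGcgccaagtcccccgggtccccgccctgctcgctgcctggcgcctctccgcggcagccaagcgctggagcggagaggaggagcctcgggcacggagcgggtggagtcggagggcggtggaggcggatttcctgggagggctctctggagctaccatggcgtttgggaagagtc
Marveld2, chr13:100616922-100617221, minus strand: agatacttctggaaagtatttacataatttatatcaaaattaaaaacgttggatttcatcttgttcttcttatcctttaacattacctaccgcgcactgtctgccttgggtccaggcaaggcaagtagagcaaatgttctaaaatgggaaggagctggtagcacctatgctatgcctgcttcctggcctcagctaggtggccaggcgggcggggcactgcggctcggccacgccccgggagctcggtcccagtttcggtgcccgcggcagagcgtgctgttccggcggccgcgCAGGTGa
In Cldn7 the matches begin 97 and 57 bases before the start site, and in Ocln 213 and 68 bases before it. Ap1m2 holds 4 matches within the last 81 bases before its start. Tom1l1 holds 1 match at 128 bases before the start, and that of Marveld2 lies 43 bases after it. Cldn6 holds a match on each side of the start, 93 bases before and 40 bases after. Of the 32 genes of the epithelial lists that were at least 2-fold lower, 20 had a window, and 16 of these (80%) held the letters in at least 1 window, against 2622 of 11754 (22.3%) of all genes with a window. Both the lists and the search were chosen with earlier results of these data known. Cldn7 and Tom1l1 have 2 windows each, of which 1 holds them. Windows were not found for Cdh1, Esrp1, Mal2, St14, Erbb3, Pkp2, Eppk1, Grhl2, Prss8, Perp, Dsg2 and Cdh3.

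The same letters were unevenly shared between genes lower and higher at 24 hours. They occurred in 145 of 310 windows of the genes at least 2-fold lower in DKK + dox (46.8%), in 46 of 470 windows of the genes at least 2-fold higher (9.79%), and in 19.3% of the 14910 windows of all genes compared. Counted by gene, 131 of 247 lower genes with a window held them, as did 44 of 335 higher genes. Without the epithelial lists the share among lower genes was 44.2%. Below -2 it was 61.9% of 21 windows, from 15 genes. The share descended from 44.5% at differences between -1.5 and -1 to 19.1% just under 0, 14.8% between 0.5 and 1, and 10.3% between 1 and 1.5. Windows of lower and higher genes were alike in base composition, with 60.6% and 60.1% G or C, against 59.7% over all windows.

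Other E-boxes were searched in the same windows. CAGCTG and CACGTG each read the same on both strands, and neither can hold the letters above. CAGCTG was in 13.9% of the windows of lower genes, 18.1% of those of higher genes and 15.9% of all. CACGTG was in 10% of the windows of lower genes, 5.96% of those of higher genes and 9.26% of all, so that it too was less frequent among higher genes, while its share among lower genes was near that of all. Along the window, matches to CAGGTG or CACCTG began in 14.2% of the windows of lower genes between 100 and 50 bases before the start, against 1.28% of those of higher genes and 3.92% of all. In the 50 bases after the start, 0 of 470 windows of higher genes held a match. The share there was 8.71% among windows of lower genes and 2.94% over all windows. A match is a run of letters and does not show binding, and several windows can belong to 1 gene and overlap.

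**Figure D4:**
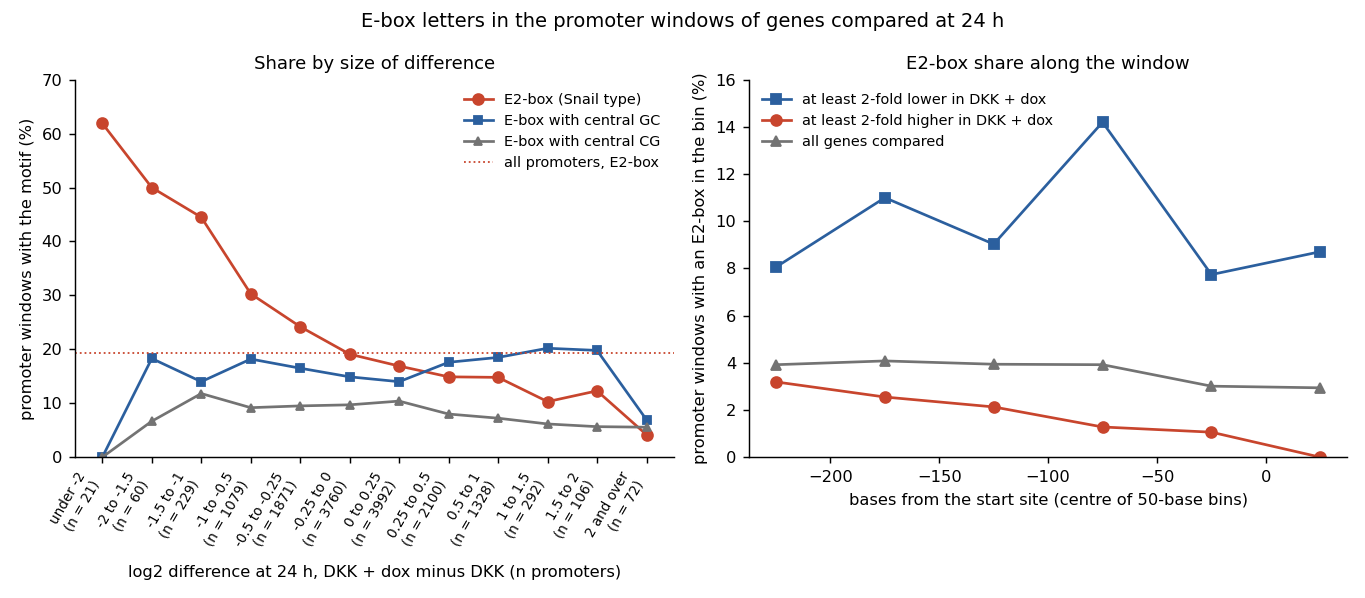
Left, percent of promoter windows with an E2-box (CAGGTG or CACCTG, red), an E-box with central GC (blue) or with central CG (grey) by log2 difference at 24 hours (DKK + dox minus DKK), with the share over all windows dotted at 19.3%. Right, percent of windows with an E2-box in each 50 bases for genes lower (blue), higher (red) and all (grey). The red line at left descends as the difference increases, apart from 12.3% between 1.5 and 2, and at right the lower genes lie above all genes in every bin.

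Transcription factors of EMT had the highest median of the 52 lists, at 1.74, with 8 of 13 genes at least 2-fold higher and 0 lower. This rank too is among lists chosen with earlier results of these data known. Sox9, a factor of neural crest and cartilage, read 116, 382 and 745 in DKK + dox at 6, 12 and 24 hours, against 91.3, 44.8 and 49.1 in DKK (3.46). Foxc1 read 256 in DKK + dox and 16.1 in DKK (2.91). Zeb1 and Zeb2, repressors that bind the same E-boxes as Snail, had 2.70 and 1.98, with another probe set of Zeb1 at 0.19. The other probe sets of Zeb2 above the limit were at 1.73, 2.30 and 0.18. Twist1 read 440 in DKK + dox and 116 in DKK (1.76), and Gsc 132 in DKK + dox and 21.9 in DKK (1.85). Snai2, the Slug gene of the Snail family, did not reach 2-fold, at 33.5 in DKK + dox, under the limit, and 48.6 in DKK (-0.36).

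Interstitial matrix genes had 11 of 29 higher and 0 lower, with a median of 0.75. Behind Tgfbi came the fibrillar collagen genes Col3a1, at 221 in DKK + dox and 21.5 in DKK (2.52), and Col5a2, at 290 in DKK + dox and 35.0 in DKK (2.48). The microfibril gene Fbn2 had 2.22 and the integrin ligand gene Edil3 2.39. Fn1, which encodes fibronectin, read 1669, 886 and 1858 in DKK + dox at 6, 12 and 24 hours, against 1914, 791 and 697 in DKK, so that its difference of 1.39 at 24 hours was 0.16 at 12 hours. The DKK culture had less fibronectin signal at 24 than at 6 hours, while the DKK + dox culture did not.

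The basement membrane genes split, with 3 of 16 higher and 2 lower. Those higher were the network collagen genes Col4a1 and Col4a2 (1.58 and 1.69) and their linker Nid1, which read 656 in DKK + dox and 101 in DKK (2.48). Lama5, a laminin chain of epithelia, read 75.1 in DKK + dox and 207 in DKK (-1.25). The other lower gene, Col15a1, was under the limit in both day 3 arrays, at 2.09 in DKK + dox and 26.7 in DKK (-1.06). Its difference at 12 hours was 1.24.

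Genes that remodel or fold matrix had 6 of 20 higher and 0 lower, with a median of 0.58. The gelatinase gene Mmp2 read 330, 772 and 1326 in DKK + dox at 6, 12 and 24 hours, against 255, 382 and 388 in DKK (1.72), and Mmp14, whose product activates Mmp2, read 2022 in DKK + dox and 724 in DKK at 24 hours (1.46). Serpinh1, the collagen chaperone, read 1814 in DKK + dox and 376 in DKK (2.21). The protease inhibitor gene Reck was higher as well (1.10). Of 17 integrin genes 3 were higher and 1 lower, against 3.12% and 2.2% of all genes compared. The collagen receptor subunit Itga1 had 2.29 and the fibronectin receptor subunit Itga5 1.06, whereas Itga6, a laminin receptor subunit of epithelia, read 1071 in DKK + dox and 2276 in DKK (-1.07).

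In the cytoskeleton, 9 of 33 genes of actin regulation, intermediate filaments and annexins were higher and 0 lower, with a median of 0.47. Vim, which encodes the mesenchymal filament protein vimentin, read 7983 in DKK + dox and 3602 in DKK (1.14). Anxa5 read 1999 in DKK + dox and 465 in DKK (2.06), and the difference of Anxa3 was 1.97. Cald1, an actin-binding protein gene, had 1.88 on the probe set used and -0.06 on another. Anxa2 had 2.90 on the probe set used, 2.85 on another and -0.71 on a dim one that read 27.1 in DKK + dox and 57.4 in DKK. Acta2 had 1.57, and its other probe sets were under the limit in both day 3 arrays.

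Genes of the vessel wall formed a further group. Of 22 endothelial receptors and ligands, 11 were at least 2-fold higher and 0 lower, with a median of 1.09. Kdr, which encodes the VEGF receptor Flk1 of early mesoderm and endothelium, read 60.5, 371 and 771 in DKK + dox at 6, 12 and 24 hours, against 77.5, 99.3 and 89.4 in DKK (2.85). Ramp2, a partner of the adrenomedullin receptor, read 788 in DKK + dox and 121 in DKK (2.52). The receptor gene Nrp1 had 1.98, Tek 1.56 and Flt1 1.47. Other probe sets of Flt1 were at 1.47, 0.90 and 0.19. Pecam1, a defining gene of mature endothelium, was under the limit at 25.2 in DKK + dox and 7.64 in DKK.

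G protein-coupled receptors of vessels and migrating cells had 7 of 16 higher and 1 lower, with a median of 0.65. Aplnr, the apelin receptor of mesoderm progenitors, read 222 in DKK + dox and 17.6 in DKK (2.67). Calcrl, with which Ramp2 forms a receptor, read 343 in DKK + dox and 23.4 in DKK (3.05) on the probe set used, with its other probe sets under the limit in both day 3 arrays. The thrombin receptor gene F2r read 9363 in DKK + dox and 3266 in DKK (1.51). The lower member was Ptger4, at 144 in DKK + dox and 326 in DKK (-1.07).

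ETS factors, many of which act in blood and vessel formation, had 5 of 16 higher and 1 lower. Fli1 read 11.1, 206 and 693 in DKK + dox at 6, 12 and 24 hours, against 10.6, 58.4 and 20.9 in DKK. Ets1 read 110, 401 and 1400 in DKK + dox, against 73.0, 106 and 101 in DKK (3.55 at 24 hours, with 0.54 on another probe set), and Elk3 had 3.05. Etv2, a master factor of blood and endothelial progenitors, was highest at 12 hours, at 498, 2572 and 1257 in DKK + dox against 354, 640 and 389 in DKK, with differences of 0.47, 1.97 and 1.64. Etv4, a target of FGF signaling, read 46.5 in DKK + dox and 138 in DKK (-1.24), with -0.48 on another probe set.

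Regulators of blood progenitors had 5 of 15 higher and 0 lower, with a median of 0.41. Gata2 read 21.4, 359 and 646 in DKK + dox, against 41.8, 109 and 41.4 in DKK at the same times (3.43 at 24 hours). Tal1, the partner of Gata2 and Lmo2 in a blood-forming complex, read 395 in DKK + dox and 39.0 in DKK (2.80), and Lmo2 read 497 in DKK + dox and 154 in DKK (1.57). Mecom and Hhex had 1.96 and 1.36. Myb, a factor of definitive blood progenitors, read 497 in DKK + dox and 871 in DKK (-0.78).

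SOX genes had 4 of 16 higher and 0 lower, against 3.12% and 2.2% of all genes compared, with a median of -0.12. Apart from Sox9, those higher were Sox7, Sox17 and Sox18, which form the SoxF class of endothelium and endoderm. Sox7 read 277, 54.5 and 356 in DKK + dox at 6, 12 and 24 hours, against 272, 53.9 and 25.1 in DKK, so that its difference was 0.02, 0.01 and 3.04. Sox17 read 393 in DKK + dox and 79.9 in DKK (2.04), and Sox18 305 in DKK + dox and 34.8 in DKK (2.55). The neural member Sox3 read 338 in DKK + dox and 666 in DKK (-0.94).

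Of 22 cardiac and lateral mesoderm genes, 6 were higher and 1 lower, with a median of 0.18. Isl1, a factor of cardiac progenitors, read 169, 420 and 741 in DKK + dox, against 87.1, 92.4 and 95.5 in DKK (2.71 at 24 hours). Mef2c read 234 in DKK + dox and 9.34 in DKK (3.09), and Zfpm2, a cofactor of GATA factors in the heart, 140 in DKK + dox and 12.5 in DKK (2.28). Pdgfra, a receptor of early mesoderm, read 148 in DKK + dox and 18.9 in DKK (2.09). Pdgfrb had 1.67 on the probe set used, and its other probe set was under the limit in both day 3 arrays. Gata4, Hand1 and Tbx5 lay within 2-fold, at 0.38, 0.20 and -0.21. The lower gene was Hopx, at 129 in DKK + dox and 337 in DKK (-1.26).

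Among 16 genes of the primitive streak, 2 were higher and 0 lower. Eomes read 106, 122 and 588 in DKK + dox at 6, 12 and 24 hours, against 121, 133 and 188 in DKK (1.54 at 24 hours), and the other was Gsc. Mixl1, Mesp1 and Fgf8 had 0.27, -0.26 and -0.68. In the paraxial mesoderm list, 2 of 11 were higher, Foxc1 and Eya1 (2.47, with 0.83 and 0.06 on other probe sets), and Tcf15 had -0.71. Homeobox genes of the TALE class had 4 of 14 higher and 0 lower, led by Pknox2 at 214 in DKK + dox and 2.35 in DKK (3.35), with Irx3 at 2.34 and Meis2 at 1.88. Meis1 was within 2-fold on the probe set used (0.15). Another probe set of Meis1 read 174.6 in DKK + dox and 1.31 in DKK (3.15). Of 16 Hox genes, 0 were higher and 1 lower, against 3.12% and 2.2% of all genes compared.

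The BMP, TGF-beta and Wnt pathways each had a few genes with large differences. BMP signaling genes had 4 of 28 higher, 1 lower and a median of 0.45, where 3.12% of all genes compared were higher and 2.2% lower. The BMP target gene Id4 read 442 in DKK + dox and 123 in DKK (1.69), Smad5 1152 in DKK + dox and 370 in DKK (1.59), and the pseudoreceptor Bambi 1102 in DKK + dox and 382 in DKK (1.48). Nog, which encodes the BMP antagonist noggin, read 52.1 in DKK + dox and 2.64 in DKK (1.65). The lower gene was Gdf3 (-1.05, with -0.47 on another probe set). The TGF-beta and activin list had 2 of 27 higher and 1 lower, with a median of 0.19. Such counts are near the shares of all genes compared and say little about that list. The TGF-beta ligand gene Tgfb2 read 149 in DKK + dox and 12.9 in DKK (2.34). The lower gene of this list was Ltbp4, at 186 in DKK + dox and 452.5 in DKK (-1.20).

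In the Wnt list, 3 of 46 genes were higher and 1 lower, with a median of -0.02. Over all genes compared, 3.12% were higher and 2.2% lower. Endogenous Dkk1 read 250, 109 and 472 in DKK + dox at 6, 12 and 24 hours, against 262, 34.5 and 20.8 in DKK (3.57 at 24 hours). The DKK added to both cultures was protein and is not read by the array. The Wnt enhancer gene Rspo3 read 140 in DKK + dox and 7.22 in DKK (2.53), and the antagonist gene Sfrp1 967 in DKK + dox and 324 in DKK (1.52). Axin2 and Lef1, which Wnt signaling activates, had 0.18 and 0.08, with 0.83 on another probe set of Lef1. The receptor gene Fzd6 was lower on the probe set used (-1.58) and higher on another (0.61).

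FGF signaling had 1 of 25 higher and 3 lower. Fgf5, the ligand that marks the epiblast, read 106, 175 and 541 in DKK + dox, against 354, 1244 and 1821 in DKK. Its difference was -2.69 at 12 hours and -1.71 at 24 hours. Fgf4 read 126 in DKK + dox and 434 in DKK (-1.63), with -1.76 and -0.39 on other probe sets. The phosphatase gene Dusp4 read 394 in DKK + dox and 120 in DKK (1.56). In the axon guidance families, 8 of 60 were higher and 4 lower. Efnb1 and Plxnd1 had 1.74 and 1.67, whereas Sema4d, which read 148 in DKK + dox and 510 in DKK, had -1.66. Notch signaling had 1 of 18 higher, Hey2 (1.80), and retinoic acid genes 1 of 16, Nr2f1 (1.56). Over all genes compared, 3.12% were higher and 2.2% lower, so a count of 1 in such short lists says little about them.

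Genes of the epiblast had 3 of 19 lower and 0 higher, with a median of -0.51 and 16 of the 19 below 0. The lower genes were Fgf5, Grhl2 and the amino acid transporter gene Slc7a3, at 1958 in DKK + dox and 5435 in DKK (-1.46). Otx2 read 1699 in DKK + dox and 2177 in DKK (-0.35), and Zic5 1326 in DKK + dox and 2216 in DKK (-0.73). Of 2 other probe sets of Zic5 above the limit, 1 was at least 2-fold lower. The core pluripotency genes had 0 of 14 at 2-fold in either direction and a median of -0.23. Over all genes compared, 3.12% were higher and 2.2% lower. Pou5f1, Sox2 and Nanog had -0.14, -0.23 and 0.03. Among 17 naive pluripotency genes, Fgf4 and Nr0b1 (-1.27) were lower and 0 higher, with a median of 0.02. Between 6 and 24 hours their median differed by -2.30 within DKK + dox and by -2.75 within DKK, differences that share the day 3 arrays with the comparison.

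Neural and anterior genes went both ways, with 4 of 26 higher and 5 lower, against 3.12% and 2.2% of all genes compared. Zic1 read 420, 745 and 766 in DKK + dox at 6, 12 and 24 hours, against 126, 173 and 121 in DKK, and was past 2-fold at every time (1.58, 1.98 and 2.47). Tubb3 and Lhx2 had 1.42 and 1.32. The neurofilament gene Nefh read 66.2 in DKK + dox and 208 in DKK (-1.39), and Hes6, Elavl3, Npdc1 and Neurod1 had -1.13, -1.18, -1.08 and -1.04. Another probe set of Neurod1 was at -0.36.

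Other lists held a few large differences. Among 39 cell cycle genes, Ccnd2 read 791 in DKK + dox and 132 in DKK (2.41) and Cdkn1c 1552 in DKK + dox and 698 in DKK (1.13), while the other 37 lay within 2-fold. The imprinted genes had 3 of 19 higher, Igf2 at 1640 in DKK + dox and 206 in DKK (2.88, with -0.08 on another probe set), Peg3 (2.02) and Cdkn1c. In the interferon and MHC list, with a median of -0.36, 3 of 14 were lower, the class I genes H2-K1 and H2-D1 (-1.51 and -1.34) and Psmb8 (-1.18), while B2m, whose product pairs with class I chains, read 1556 in DKK + dox and 930 in DKK (0.73). Other probe sets of H2-K1 ranged from -1.44 to -0.51, and those of H2-D1 above the limit from -1.39 to -0.16. Cholesterol synthesis and p53 target lists had 0 of 16 and 0 of 15 at 2-fold, and the stress response list 1 of 16, Atf3 (1.76). Over all genes compared, 3.12% were higher and 2.2% lower.

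Markers of other cell types that embryoid bodies or feeder carry-over could hold were read in the same way. Parietal endoderm had 4 of 14 genes higher and 0 lower, with summed intensities of 7276 in DKK + dox and 4342 in DKK. The 4 were Sox7, Pth1r (2.48), Col4a1 and Col4a2, of which the SoxF and collagen genes stand in other lists as well. Visceral endoderm had 2 of 13 higher, Sox17 and Dab2 (1.22), and 1 lower, Foxa1, with sums of 2812 in DKK + dox and 3296 in DKK, and Afp was under the limit in both. Feeder fibroblasts had 3 of 10 higher, Acta2, Pdgfrb and Cd248 (1.88), with sums of 2079 in DKK + dox and 1406 in DKK. Trophoblast and germ cell lists had 0 of 5 and 0 of 11 at 2-fold. Over all genes compared, 3.12% were higher and 2.2% lower, so 0 in such short lists says little. Whether these cells contribute to the matrix and endothelial differences was not tested.

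The 12 hour arrays, which share no array with those at 24 hours, had 187 genes higher by 2-fold or more (1.27%) and 332 lower (2.25%), so that decreases outnumbered increases at 12 hours and increases outnumbered decreases at 24 hours. Of the 324 genes lower at 24 hours, 187 (57.7%) were already 2-fold lower at 12 hours, whereas of the 461 higher genes 115 (24.9%) were 2-fold higher at 12 hours. Read the other way, 187 of 332 (56.3%) and 115 of 187 (61.5%) of the genes past 2-fold at 12 hours were so at 24 hours. At 12 hours the median difference was -1.10 over the 324 and 0.68 over the 461, and at 6 hours it was -0.41 and 0.17.

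Genes that moved late were mostly higher. The difference was under 0.25 in the direction of the call at both 6 and 12 hours for 64 of the higher genes and 20 of the lower genes. Sox7 led them, followed by Ctla2a, at 827 in DKK + dox and 89.2 in DKK (2.95, and 0.12 at 12 hours), and by Ctla2b (2.21). Cdh2, Fn1, Eomes and the adhesion gene Nrcam, with -0.08, 0.16, -0.11 and -0.52 at 12 hours, were of this kind. Ap1m2 and Rab25 of the epithelial lists did not meet this rule, at -0.77 and -0.40 at 12 hours, but were past 2-fold only at 24 hours. Each time is 1 pair of arrays, so the order of genes in time has no replicate check.

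**Figure D5:**
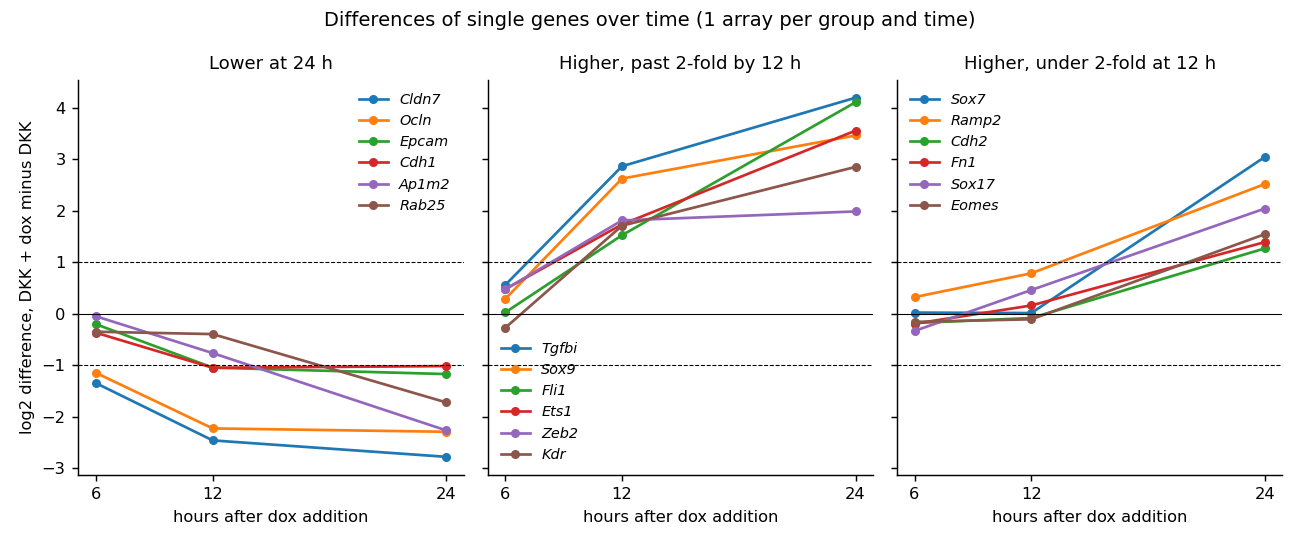
Log2 difference (DKK + dox minus DKK) at 6, 12 and 24 hours after dox for 6 genes lower at 24 hours (left), 6 higher and past 2-fold by 12 hours (middle) and 6 higher but under 2-fold at 12 hours (right), picked to show the kinds of course. Cdh1 and Epcam are flat after 12 hours, whereas Sox7 is at 0.01 at 12 hours and 3.04 at 24 hours.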

How the data were processed

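RNA of 6 cultures was hybridised to Affymetrix mouse arrays, and normalization and modeling by the authors used dChip. The deposited values are intensities on a linear scale for 45037 probe sets, with a lowest value of 1. The version of dChip and its settings were not given in the sources used here. Gene names came from the annotation of the platform, checked by Entrez ID against RefSeq (GRCm38.p6). Of the probe sets, 34945 had 1 symbol, 34741 of them matched, and 932 with several symbols and 9160 with none were not used for genes. A gene with several probe sets was read from the brightest by mean over the 6 arrays. Genes at or under 37.2 (pooled 40th percentile) on all arrays, 3438 of 18193, were left out. Values were taken as log2(intensity + 20.6), the offset being the pooled 25th percentile, and DKK was subtracted from DKK + dox at each time. With 1 array per group no test was possible, and the number of arrays limits the precision. Array medians were 53.5 to 63.7, and 37.5 to 41.3% of probe sets on an array did not exceed the limit.

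The lists, the genes and the search for E-boxes were chosen with earlier results of these data known. Genes were named by rule: Snai1, Cdh1, Hprt, the genes the study names for these arrays (Otx2, Zic5, Cldn6, Mmp2, Ncam1, Isl1, Gata2), the 15 largest increases and decreases at 24 hours, and up to 5 members of each of 52 lists with the largest differences. All other genes named, such as Krt8, Tjp1, Crb3, Rab25, Epcam, Fn1, Vim, Twist1, Snai2, Pecam1, Pou5f1, Sox2, Nanog, Ctla2a and Ctla2b, were picked after their values were seen. Alternatives were the offset, the filter on low signal, quantile normalization, centring on the median, the choice of probe set, the fold and the promoter window. The scripts were tested on simulated data. Python 3.11.15 was used with NumPy 2.4.6, pandas 2.3.3, SciPy 1.17.1 and Matplotlib 3.10.9.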

Additional observations from a re-analysis of the deposited data

Results flagged for a closer look

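Probe sets with no gene or several symbols entered none of the comparisons. Of 5235 such probe sets above the low-signal limit, 79 were higher and 97 lower in DKK + dox at 24 hours by 2-fold or more. They were singled out because they carry differences in data outside the gene comparison, and which transcripts they read was not analysed.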

How the results depend on the processing

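The 24 hour counts of 461 genes higher and 324 lower stayed within 1.5 times under 9 alternatives of offset, filter, scaling and probe set. Under these they ran from 320 to 586 higher and from 216 to 460 lower. The 216, with the offset at the 40th percentile, lies at the edge of that range. The counts also stayed within 1.5 times under both settings added after seeing the data (without genes at an intensity of 1 on a day 3 array, and with both day 3 arrays above the limit). They depended on the fold, with 1326 higher and 1060 lower at 1.5-fold and 159 higher and 67 lower at 3-fold. The share of promoter windows with CAGGTG or CACCTG among lower genes was 53% at 3-fold, 26.5% in the window from 100 bases before the start, and 40.3% before the start alone (added after seeing the data), where all windows had 16.7%. Among higher genes it was 2.13% in the shorter window, where all windows had 9.32%. On probe sets whose names carry no mark of a match to several transcripts, Acta2 (-0.39), Anxa2 (-0.71), Calcrl (-0.39) and Pdgfrb (-0.21) changed sign. Those of Acta2, Calcrl and Pdgfrb were under the low-signal limit in both day 3 arrays and that of Anxa2 in DKK + dox, so that these values are dim readings. Of 149 named genes past 2-fold, 145 kept their sign under each of the 9 alternatives that read them and 113 stayed past 2-fold. No paired analysis was possible because each group had 1 array at each time. Dim readings limit the rest: 17 of the 324 lower genes were at the lowest value in DKK + dox, and 9 of the 461 higher genes were at it in DKK.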
